A study of Mus musculus with 6 samples.

Results

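The synthesis of cholesterol and fatty acids was followed through 28 genes in mouse ventral midbrain cultures in which the circular RNA circRmst had been targeted. The genes were chosen by name: 17 enzymes from Hmgcs1 to Dhcr7 that make cholesterol, 4 genes of sterol sensing and transport, and 7 genes of fatty acid synthesis. All 28 were among the 42396 genes of the count tables. RNA was sequenced from 6 libraries of primary cells from the ventral midbrain of wild-type (WT) mouse embryos at embryonic day 14. The knockdown libraries (n = 3) came from cells infected with a lentivirus that carried the hairpin pll3.7-shRmstI against circRmst. The control libraries (n = 3) came from cells infected with a lentivirus that carried the scramble hairpin pll3.7-Scr2. Both groups were plated at 150000 cells per well, infected on the day of plating at a multiplicity of 5 and collected at 3 days in vitro. The libraries were numbered 1 to 3 in each group, and 3 independent cultures were sequenced per the labels, which do not say which libraries share one. A few wells per condition were harvested. The p-values below rest on the spread between these libraries, which the tests estimate for each gene with help from the spread of all genes. The SE of a fold change therefore does not come from the libraries of that gene alone.

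The counts summed to between 35256611 and 43646521 in the knockdown libraries and between 27248934 and 41982557 in the control libraries. The labels call the cells dopamine neurons, and all 10 markers of that cell type, Th among them, were above 1 CPM (counts scaled to the size of each library) in every library. Markers of other cells were there too: those of astrocytes and radial glia summed to 1285 to 1553 CPM in knockdown libraries and 1193 to 1506 CPM in control libraries. The cultures are therefore described here as mixed, and in such a mixture fewer cells of a type and less RNA per cell cannot be told apart. Rmst, the gene from which circRmst is made, had 105, 97.1 and 115 CPM in knockdown libraries and 115, 117 and 124 CPM in control libraries. Its log2 fold change was -0.16 ± 0.10 (SE), which did not pass edgeR's quasi-likelihood test (unadjusted p = 0.117, adjusted p = 1.00). A count for the whole gene does not measure the circle, so the loss of circRmst was not measured here.

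Cells build cholesterol from acetyl-CoA by way of mevalonate, squalene and lanosterol. The transcription factors SREBP1 and SREBP2, made by Srebf1 and Srebf2, switch on the genes of this route and of fatty acid synthesis when membrane sterol is low, with SREBP2 acting mainly on sterol genes and SREBP1 mainly on fatty acid genes. The brain makes its own cholesterol, since lipoproteins from the blood hardly cross the blood-brain barrier, and growing neurites, synapses and myelin all draw on it.

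No gene of the set passed the test between knockdown and control. By edgeR's quasi-likelihood test all 28 passed the filter on low counts, 0 were called at an adjusted p under 0.05 and 0 had an unadjusted p under 0.05. Over the 17439 genes tested, 0 were called as well (0%), and 191 (1.10%) had an unadjusted p under 0.05. DESeq2 called 1 gene, which was not of the set, and limma voom called 0. The smallest unadjusted p of the set was 0.0716, for Srebf1, and its adjusted p was 1.00. Of the 28 log2 fold changes, 9 were above 0 and 19 below (67.9% below, beside 51.9% of all genes tested), with a median of -0.04 beside -0.006 over all genes tested. Leaving out single libraries moved the split both ways. It was 17 above and 11 below without knockdown library 1, and 14 above and 14 below without control library 2 or 3. It was 5 above and 23 below without control library 1, and 6 above and 22 below without knockdown library 2. Without knockdown library 3 it stayed at 9 above and 19 below. The values ran from -0.24 for Nsdhl to 0.20 for Srebf1. In 24 of 28 genes the spread between libraries of one group (pooled SD on the log2 scale) exceeded the difference between the group means, and the exceptions were Nsdhl, Srebf1, Stard4 and Scd2.

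In the counts, the libraries did bound the size of a difference, gene by gene. No intervals were computed on the FPKM scale. The 95% interval of the fold change from edgeR lay within 1.5-fold in either direction for all 28 genes, with a median half-width of 0.27 log2 units. Of the 10168 tested genes whose mean level was at least that of the lowest gene of the set, 95.8% had an interval that narrow. Intervals this narrow were thus usual for genes at such levels. Differences inside a gene's own interval half-width were not detectable at this depth and number of libraries.

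**Figure D1:**
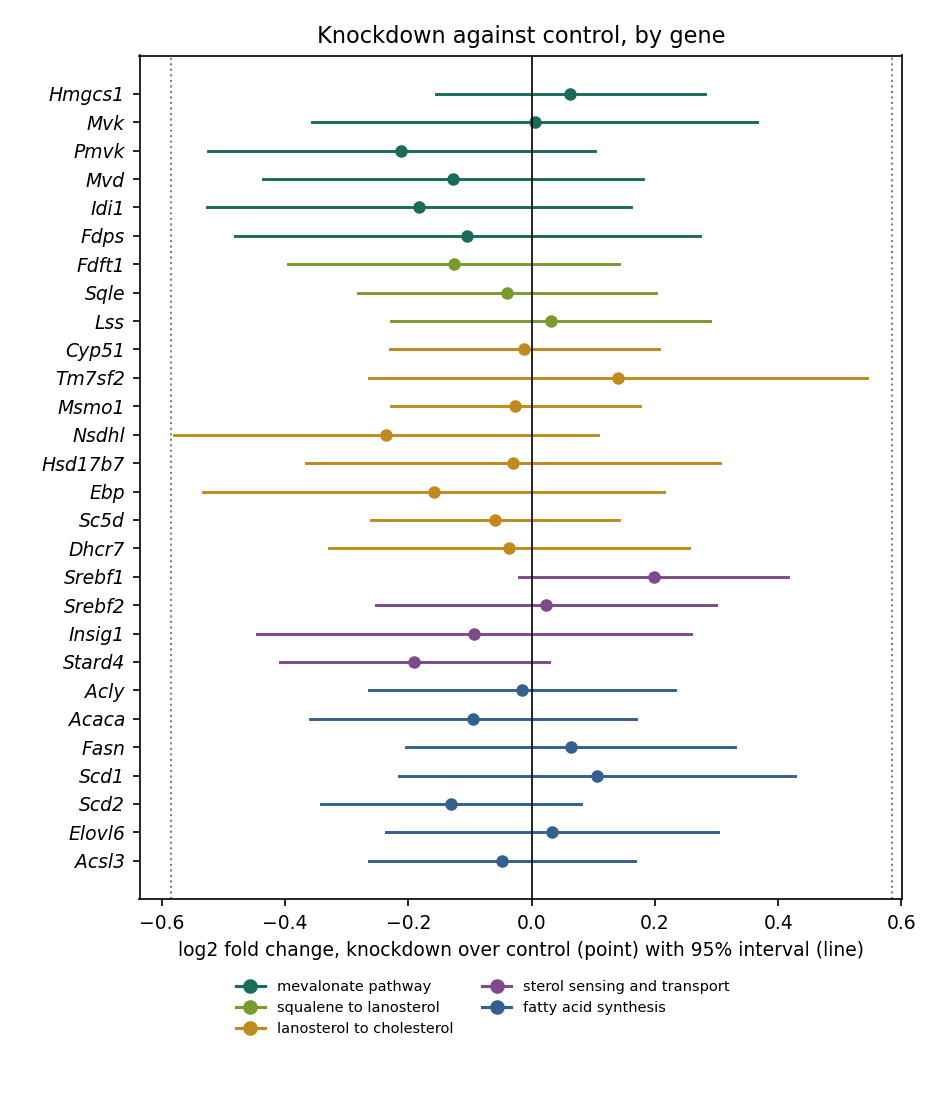
Log2 fold change of each of the 28 genes, knockdown against control, with its 95% interval from edgeR (n = 3 libraries each), ordered by role; the dotted lines mark 1.5-fold. Every interval includes 0 and lies inside the lines, and the point estimates run from -0.24 to 0.20.

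The mevalonate pathway turns acetyl-CoA into farnesyl pyrophosphate in the steps of 6 of these genes. Of them, 0 passed the test, 2 log2 fold changes were above 0 and 4 below, and their median was -0.12. Hmgcs1, the synthase that makes HMG-CoA, was the most abundant gene of the pathway (chromosome 13, 119690351 to 119708260, GRCm38). It had 936, 1018 and 1028 CPM in knockdown libraries 1 to 3, against 1003, 949.7 and 902 CPM in control libraries 1 to 3. The groups overlapped, and the log2 fold change was 0.06 ± 0.10 (SE). Pmvk, the kinase that phosphorylates phosphomevalonate, had the largest log2 fold change of the pathway in size, -0.21 ± 0.14 (SE). Its levels were 40.2, 35.5 and 34.0 CPM in knockdown libraries, against 51.3, 35.7 and 39.9 CPM in control libraries. Knockdown library 1 was above control libraries 2 and 3, so the groups overlapped. Without control library 1 the log2 fold change of Pmvk was -0.04. The other genes were Mvk (mevalonate kinase) at 0.005, Mvd (the decarboxylase that yields isopentenyl pyrophosphate) at -0.13, Idi1 (the isomerase of that product) at -0.18 and Fdps (farnesyl pyrophosphate synthase) at -0.10 log2 units.

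Promoters of this pathway are the textbook targets of SREBP2, which binds sterol regulatory elements with the help of the CCAAT-binding factor NF-Y. Those of Hmgcs1 and Mvk are shown with that of Insig1, a gene of sterol sensing, so that the letters can be set beside the levels: 300 bases each, meant to run from 250 before to 50 after a start, from RefSeq on GRCm38.p6. Capitals mark TCACNCCAC or CACNCCAC (sterol regulatory element letters, the first motif holding the second), CACGTG (E-box) and CCAAT, each on either strand, so that ATTGG is CCAAT and GTGGCGTG is CACGCCAC on the reverse strand. The windows are chr13:119690101-119690400 for Hmgcs1, chr5:28071162-28071461 for Insig1 and chr5:114444019-114444318 for Mvk, all on the plus strand. Hmgcs1 is shown for its match to TCACNCCAC, Insig1 for a CACGTG and a reverse-strand CACNCCAC, and Mvk for its 5 CCAAT motifs.
Hmgcs1: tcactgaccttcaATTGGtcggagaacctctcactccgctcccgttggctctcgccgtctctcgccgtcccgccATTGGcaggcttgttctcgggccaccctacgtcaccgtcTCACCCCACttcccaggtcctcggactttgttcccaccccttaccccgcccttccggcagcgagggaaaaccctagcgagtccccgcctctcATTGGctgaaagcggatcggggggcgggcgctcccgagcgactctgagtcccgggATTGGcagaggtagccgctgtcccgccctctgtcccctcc
Insig1: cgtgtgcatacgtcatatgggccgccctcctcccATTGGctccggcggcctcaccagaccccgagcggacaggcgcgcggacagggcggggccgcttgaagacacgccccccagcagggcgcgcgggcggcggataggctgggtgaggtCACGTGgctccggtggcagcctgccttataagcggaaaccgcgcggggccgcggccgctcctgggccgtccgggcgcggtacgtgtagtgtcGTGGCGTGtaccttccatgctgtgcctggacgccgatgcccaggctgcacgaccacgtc
Mvk: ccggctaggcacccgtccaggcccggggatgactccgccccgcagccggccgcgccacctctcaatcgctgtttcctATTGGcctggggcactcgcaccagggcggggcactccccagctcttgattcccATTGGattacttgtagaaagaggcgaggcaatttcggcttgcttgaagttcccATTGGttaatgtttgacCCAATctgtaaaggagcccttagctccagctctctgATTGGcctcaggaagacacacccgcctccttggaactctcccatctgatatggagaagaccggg

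Of the 28 genes, 22 had a promoter in the RefSeq table, with 27 windows in all. CCAAT was in a window of 20 of the 22, against 42.3% of 17492 protein-coding genes with a window, and the exceptions were Acaca and Elovl6. Hmgcs1 and Nsdhl had 4 CCAAT motifs each. CACGTG was in 4 (Dhcr7, Hsd17b7, Insig1 and Sc5d), against 8.91% of protein-coding genes. CACNCCAC was in 2 (Hmgcs1 and Insig1), against 7.26%, and TCACNCCAC in Hmgcs1 alone, against 1.41%. These are matches of letters in a short window, and CCAAT was the motif that most of these promoters shared. For the genes shown, the log2 fold changes between knockdown and control were 0.06 for Hmgcs1, -0.09 for Insig1 and 0.005 for Mvk, each with an interval that includes 0.

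Squalene, the first molecule committed to sterols, is made, oxidised and folded into lanosterol by the products of Fdft1, Sqle and Lss. Of the 3 genes, 0 passed the test, and the log2 fold changes were -0.13 ± 0.12, -0.04 ± 0.11 and 0.03 ± 0.12 (SE). Sqle, the squalene epoxidase and a rate-limiting enzyme of the route, was the most abundant of them per length. It had 216, 267 and 237 CPM in knockdown libraries, against 228, 269.7 and 242 CPM in control libraries. Library 1 was the lowest and library 2 the highest in both groups. Fdft1 (squalene synthase) had 175, 214 and 192 CPM in knockdown libraries, against 178, 222 and 234 CPM in control libraries. The groups overlapped in both genes, as they did in Lss.

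The 8 genes that turn lanosterol into cholesterol also held 0 calls, with 1 log2 fold change above 0 and 7 below and a median of -0.03. Cyp51, the cytochrome P450 that removes a methyl group from lanosterol, was the most abundant of them per length. Its levels were 256, 299 and 259 CPM in knockdown libraries, against 258, 284 and 278 CPM in control libraries, giving a log2 fold change of -0.01 ± 0.10 (SE). Nsdhl, a dehydrogenase that acts in the removal of methyl groups from the sterol ring, spans 72918521 to 72958528 of chromosome X (GRCm38). Nsdhl had 31.1, 49.4 and 43.7 CPM in knockdown libraries, against 44.8, 50.6 and 50.9 CPM in control libraries. Knockdown library 1 stood lowest, and the other knockdown libraries lay close to the controls. The log2 fold change was -0.24 ± 0.16 (SE), the largest of the set in size (edgeR unadjusted p = 0.160, adjusted p = 1.00). Without knockdown library 1 it was -0.07. Without knockdown library 2 it was -0.38, with an unadjusted p under 0.05 and no call after adjustment.

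Tm7sf2, a sterol reductase, had the only positive value of this step, 0.14 ± 0.18 (SE), and the widest range of the set, its highest library being 1.77 times its lowest. It had 27.4, 33.2 and 26.4 CPM in knockdown libraries, against 18.8, 32.9 and 27.3 CPM in control libraries. Without control library 1, the lowest, its log2 fold change would be -0.05. Of the remaining genes, the values were Msmo1 (the sterol methyl oxidase) at -0.03, Hsd17b7 (a ketosteroid reductase) at -0.03, Ebp (a sterol isomerase) at -0.16, Sc5d (a sterol desaturase) at -0.06 and Dhcr7 (the reductase of the last step) at -0.04 log2 units. Msmo1 was the steadiest gene of the set, its highest library being 1.13 times its lowest.

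Srebf1 and Stard4 were the genes of sterol sensing and transport whose libraries did not overlap between the groups. Srebf1 spans 60199084 to 60224186 of chromosome 11 (GRCm38) and measured 81.1, 72.4 and 73.3 CPM in knockdown libraries, against 60.6, 68.9 and 68.2 CPM in control libraries. All knockdown libraries were above all controls. The means were 75.6 ± 4.76 CPM in knockdown and 65.9 ± 4.58 CPM in control (SD, n = 3 each). This is a log2 fold change of 0.20 ± 0.10 (SE) with a 95% interval of -0.02 to 0.42 (edgeR unadjusted p = 0.0716, adjusted p = 1.00). Stard4, a carrier of cholesterol between membranes, had 37.0, 38.3 and 37.6 CPM in knockdown libraries, against 40.9, 43.3 and 44.7 CPM in control libraries. All knockdown libraries were below all controls. The log2 fold change of Stard4 was -0.19 ± 0.10 (SE), with an interval of -0.41 to 0.03 (edgeR unadjusted p = 0.0813, adjusted p = 1.00).

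Srebf2 and Insig1, the main regulators of the sterol genes, overlapped between the groups. Srebf2 had 406, 491 and 409 CPM in knockdown libraries, against 375, 496 and 414 CPM in control libraries, a log2 fold change of 0.02 ± 0.13 (SE). Insig1, which holds SREBP back in the endoplasmic reticulum and is itself an SREBP target, had 119.8, 170.0 and 152 CPM in knockdown libraries, against 122, 173 and 176 CPM in control libraries. Its log2 fold change was -0.09 ± 0.16 (SE). In both genes library 1 was the lowest of its group and the distance between libraries of a group was larger than that between the group means.

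Fatty acid synthesis held 0 calls among 7 genes, with 3 log2 fold changes above 0, 4 below and a median of -0.02. Scd2, the stearoyl-CoA desaturase that predominates in brain, had the largest of them in size and spans 44293676 to 44306864 of chromosome 19 (GRCm38). Scd2 measured 1280.4, 1327 and 1332 CPM in knockdown libraries, against 1422, 1480 and 1412 CPM in control libraries. Its groups did not overlap, with every knockdown library below every control. The log2 fold change was -0.13 ± 0.10 (SE), with an interval of -0.34 to 0.08 (edgeR unadjusted p = 0.199, adjusted p = 1.00). Its neighbour Scd1, another stearoyl-CoA desaturase, had 46.9, 64.8 and 73.2 CPM in knockdown libraries, against 57.1, 58.8 and 55.8 CPM in control libraries. Scd1 was thus spread widely among the knockdown libraries (SD 13.5 CPM) and narrowly among the controls (SD 1.496 CPM). Without knockdown library 1 its log2 fold change was 0.27 and its unadjusted p fell under 0.05, with no call after adjustment.

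The other genes of fatty acid synthesis overlapped between the groups. Fasn, the synthase that makes palmitate, had 829, 981 and 842 CPM in knockdown libraries, against 737, 951 and 851 CPM in control libraries. Acly, which supplies acetyl-CoA in the cytosol, averaged 462 ± 53.4 CPM in knockdown and 467 ± 38.9 CPM in control libraries (SD, n = 3 each). Acaca, the carboxylase that makes malonyl-CoA, averaged 131 ± 18.0 CPM in knockdown and 139.7 ± 12.8 CPM in control libraries. Their log2 fold changes were 0.06, -0.02 and -0.10. Elovl6, which lengthens palmitate, stood at 0.03 and Acsl3, which activates fatty acids for use in lipids, at -0.05 log2 units.

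Across the set, 3 of 28 genes had groups that did not overlap: 1 higher in knockdown (Srebf1) and 2 lower (Stard4 and Scd2). Over all genes tested, 5.20% did not overlap, 2.28% with knockdown higher and 2.92% with knockdown lower. The deposited FPKM values (fragments per transcript length and library size) of the 3 genes did not overlap either. Srebf1 had 8.01 to 9.23 FPKM in knockdown libraries and 6.86 to 7.39 FPKM in control libraries. Stard4 had 3.77 to 4.07 FPKM in knockdown libraries and 4.14 to 4.62 FPKM in control libraries. Scd2 had 158 to 171 FPKM in knockdown libraries and 175 to 182 FPKM in control libraries. Both tables come from the same reads, so the FPKM values are another way of counting and no second experiment.

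**Figure D2:**
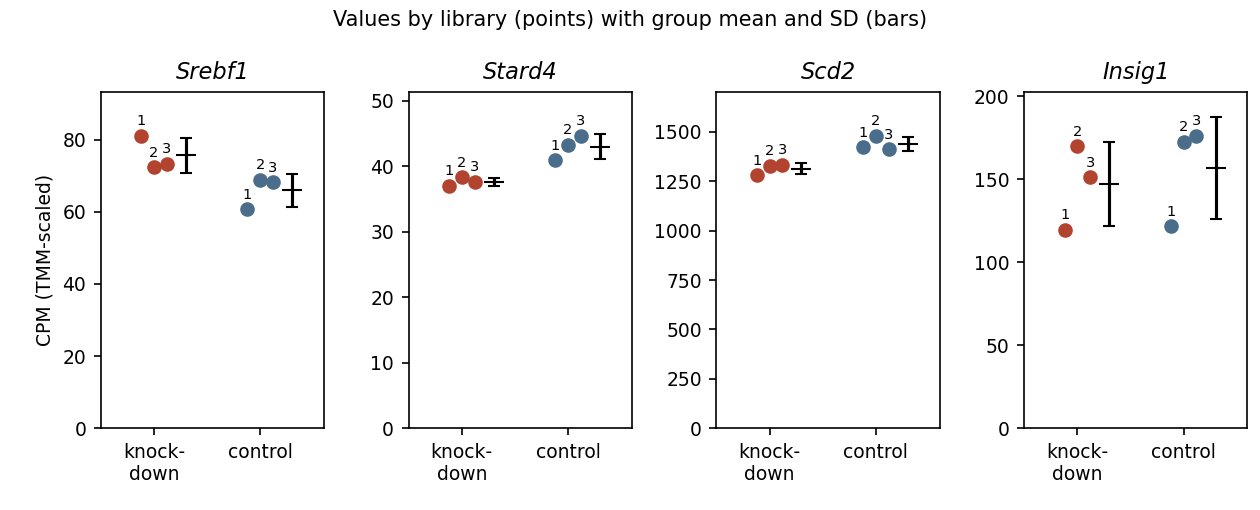
Normalised level (CPM, linear axis from 0) of Srebf1, Stard4, Scd2 and Insig1 in each library, knockdown at the left of each panel and control at the right, with 1 point per library labelled by its number and a bar for the group mean with its SD (n = 3). The groups of Srebf1, Stard4 and Scd2 do not overlap, while those of Insig1 do, with library 1 lowest in each.

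On the FPKM scale, limma on log2(FPKM + 0.1) gave 2 genes of the set an unadjusted p under 0.05, Srebf1 and Idi1, against 4.51% of 14666 genes, and 0 passed after adjustment. Idi1 had 14.8, 24.1 and 17.7 FPKM in knockdown libraries, against 24.4, 25.4 and 31.1 FPKM in control libraries. Its log2 difference on that scale was -0.54 (limma unadjusted p = 0.0319, adjusted p = 1.00). In counts Idi1 overlapped, with 13.6, 17.8 and 17.9 CPM in knockdown libraries against 20.4, 20.1 and 15.2 CPM in control libraries. It also had the lowest ratio of CPM to FPKM of the set, 0.76, the next being Pmvk at 2.06. The groups of Idi1 thus overlapped in counts and did not overlap in FPKM, there by a narrow margin (24.1 against 24.4 FPKM). The part of the counting rule in this was not tested.

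Counts of overlapping genes are uncertain, and the size of this was not measured. In RefSeq, 13 of 28 genes overlap another gene, and 5 overlap a protein-coding one: Fdft1 with Ctsb, Tm7sf2 with Vps51, Srebf1 with Rai1, Acaca with Tada2a and Gm11437, and Acsl3 with Utp14b. The libraries keep the strand, but how the counting used the strand is not stated in the labels or headers, so reads of such pairs may not be fully parted. Stard4 overlaps no gene, and Scd2 only the microRNA gene Mir5114.

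The levels of these genes differed far more from one another than between the groups. Per length, Scd2 had the highest mean over the 6 libraries, with 162 ± 7.26 FPKM in knockdown and 178 ± 3.64 FPKM in control libraries (SD, n = 3 each). Hmgcs1 had 167 ± 10.8 FPKM in knockdown, above Scd2 there, and 159.6 ± 7.21 FPKM in control libraries, and the ranges of both genes overlapped. A gap came next: the lowest Hmgcs1 library, at 153 FPKM, was above the highest library of Fdps, at 86.1 FPKM. From Fdps, with a mean of 69.3 FPKM over 6 libraries, the order ran through Acly, Sqle, Srebf2, Fasn, Fdft1, Cyp51, Insig1, Msmo1, Idi1, Mvk, Pmvk, Dhcr7, Sc5d and Mvd to Acsl3 at 14.5 FPKM, each gene overlapping its neighbour. The next gene, Nsdhl, did not overlap Acsl3 but did overlap Mvd, whose lowest library had 11.6 FPKM beside 12.6 FPKM in the highest of Nsdhl. The last 10 genes ran from Nsdhl at 11.3 FPKM through Acaca, Elovl6, Lss, Srebf1, Hsd17b7, Scd1 and Tm7sf2 to Stard4 at 4.15 and Ebp at 3.41 FPKM. Behind these values stood between 355 counts (Ebp) and 58563 counts (Scd2) per gene and library. Of the genes that encode SREBP, Srebf2 was the more abundant per length, with 47.4 FPKM beside 7.91 FPKM for Srebf1 over the 6 libraries.

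**Figure D3:**
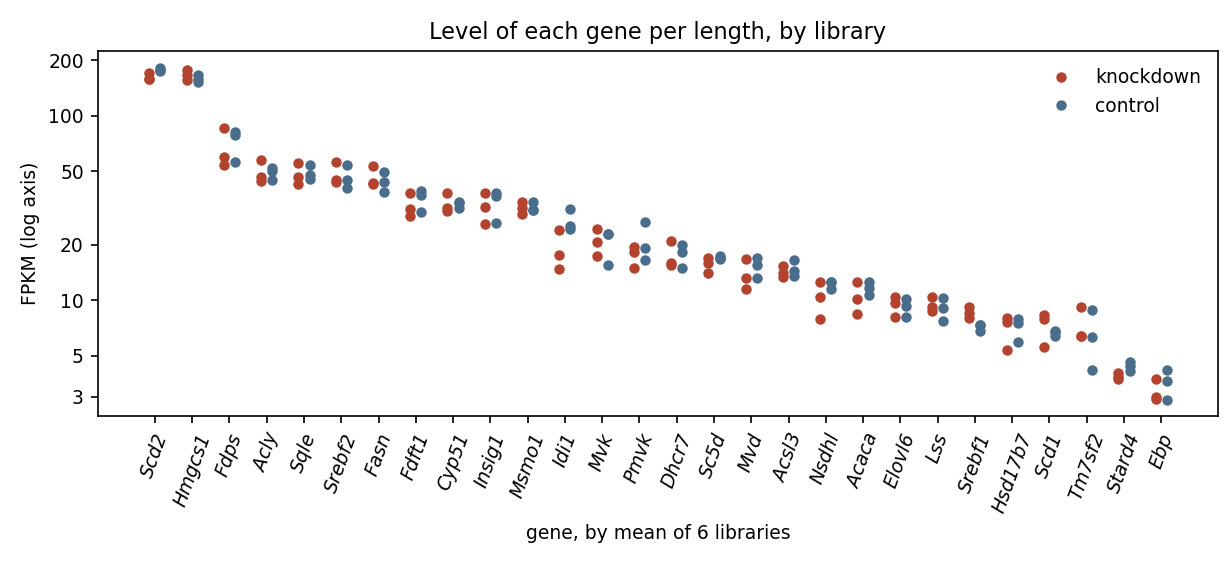
Deposited FPKM of each gene in each library on a log axis, ordered by the mean over 6 libraries, with knockdown and control libraries marked separately. Scd2 and Hmgcs1 stand above all others, Ebp is lowest at 3.41 FPKM, and the groups lie on top of each other for most genes.

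Most of the genes varied together among libraries of one group. Knockdown library 1 was the lowest of its group in 24 of 28 genes, against 32.2% of all genes tested. Control library 1 was the lowest of its group in 20 of 28, against 37.0% of all genes tested. Both were lowest at once in 17 of 28, against 14.02% of all genes tested. Counts of 24 and 20 among 28 genes must share most of their genes, so the 17 add little to them. The 17 were Mvk, Mvd, Fdps, Fdft1, Sqle, Lss, Cyp51, Nsdhl, Hsd17b7, Ebp, Dhcr7, Srebf2, Insig1, Stard4, Acly, Acaca and Fasn, so every role was among them. Library 2 was the highest of its group in 18 of 28 genes in knockdown and 16 of 28 in control, against 32.6% and 29.4% of all genes tested. It was the highest in both groups at once in 11 of 28, against 13.96% of all genes tested. Not all genes followed this order. Knockdown library 1 was the highest of its group in 2 genes and control library 1 in 5, Hmgcs1 among the 5. Only Pmvk was highest in library 1 of both groups.

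Taken as medians of log2 CPM minus the mean of the 6 libraries, the 28 genes stood at -0.17, 0.12 and -0.03 in knockdown libraries 1 to 3, against -0.12, 0.14 and 0.04 in control libraries 1 to 3. Medians over all genes tested were within 0.01 of 0 in every library. Summed over the set, the levels were 5828, 6723 and 6272 CPM in knockdown libraries, against 6014, 6766 and 6388 CPM in control libraries. The libraries of a group therefore differed by more than the groups did, and library 1 was low in both. With other scalings and on FPKM, library 1 was the lowest of its group in 20 to 25 of 28 genes in knockdown and in 20 to 23 in control. Within one gene, the highest of the 6 libraries was a median of 1.34 times the lowest, beside 1.28 over the 10168 genes of at least the lowest mean level of the set.

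**Figure D4:**
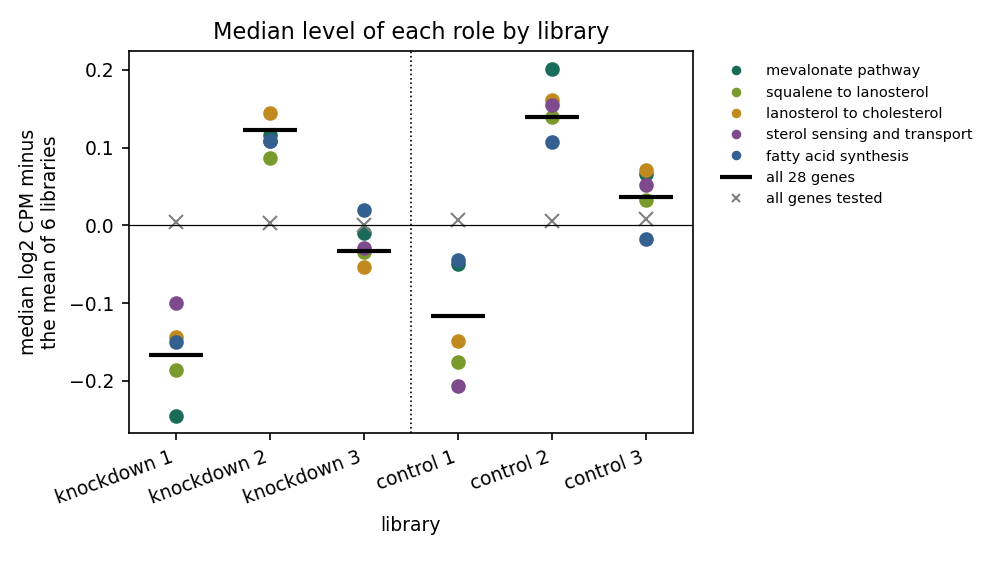
Median over the genes of each role (coloured points) and over all 28 genes (black bars) of log2 CPM minus the mean of 6 libraries, by library, knockdown at the left and control at the right; grey crosses are medians over all genes tested. Library 1 is below 0 and library 2 above 0 in both groups for every role, and the crosses stay near 0.

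Some other measures shared the library at one end of this order, though not the whole order. The ribosomal RNA gene Rn28s1 took 4.49%, 3.17% and 1.01% of the counts in knockdown libraries 1 to 3, against 4.02%, 2.90% and 2.98% in control libraries 1 to 3, and so was highest in library 1 of each group but lowest in library 3 of knockdown. The 8 neuron markers summed to 4796, 6000 and 5740 CPM in knockdown libraries, against 5449, 5650.1 and 5383 CPM in control libraries, highest in library 2 of each group but lowest in library 3 of control. The 10 dopamine neuron markers summed to 506, 512 and 585 CPM in knockdown libraries, against 527, 513 and 592 CPM in control libraries, highest in library 3 of each group. The 6 markers of oligodendrocyte precursors summed to 267, 229 and 319 CPM in knockdown libraries, against 371, 243 and 399 CPM in control libraries, lowest in library 2 and highest in library 3 of each group. The 10 markers of astrocytes and radial glia were lowest in library 2 too, at 1285 CPM in knockdown and 1193 CPM in control, as were the 8 markers of dividing cells, at 232 CPM in knockdown and 233 CPM in control. Differentiating oligodendrocytes, whose myelin is rich in cholesterol, had marker sums of 236, 210 and 224 CPM in knockdown libraries 1 to 3. In control libraries 1 to 3 these were 283, 205 and 304 CPM, so control library 2 was below every knockdown library. Mog and Mobp were under 1 CPM in every library. The groups overlapped in each of these sums. Over all genes tested, 51.9% of log2 fold changes were below 0. Gene by gene, those of all 6 precursor markers and of 7 of 8 differentiating oligodendrocyte markers were below 0 and 0 were above. These markers had 0 calls in edgeR's test. The part of these cells in the lower values of Stard4 and Scd2 was not tested. The part of ribosomal RNA or of cell types in the order of the libraries was not tested.

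**Figure D5:**
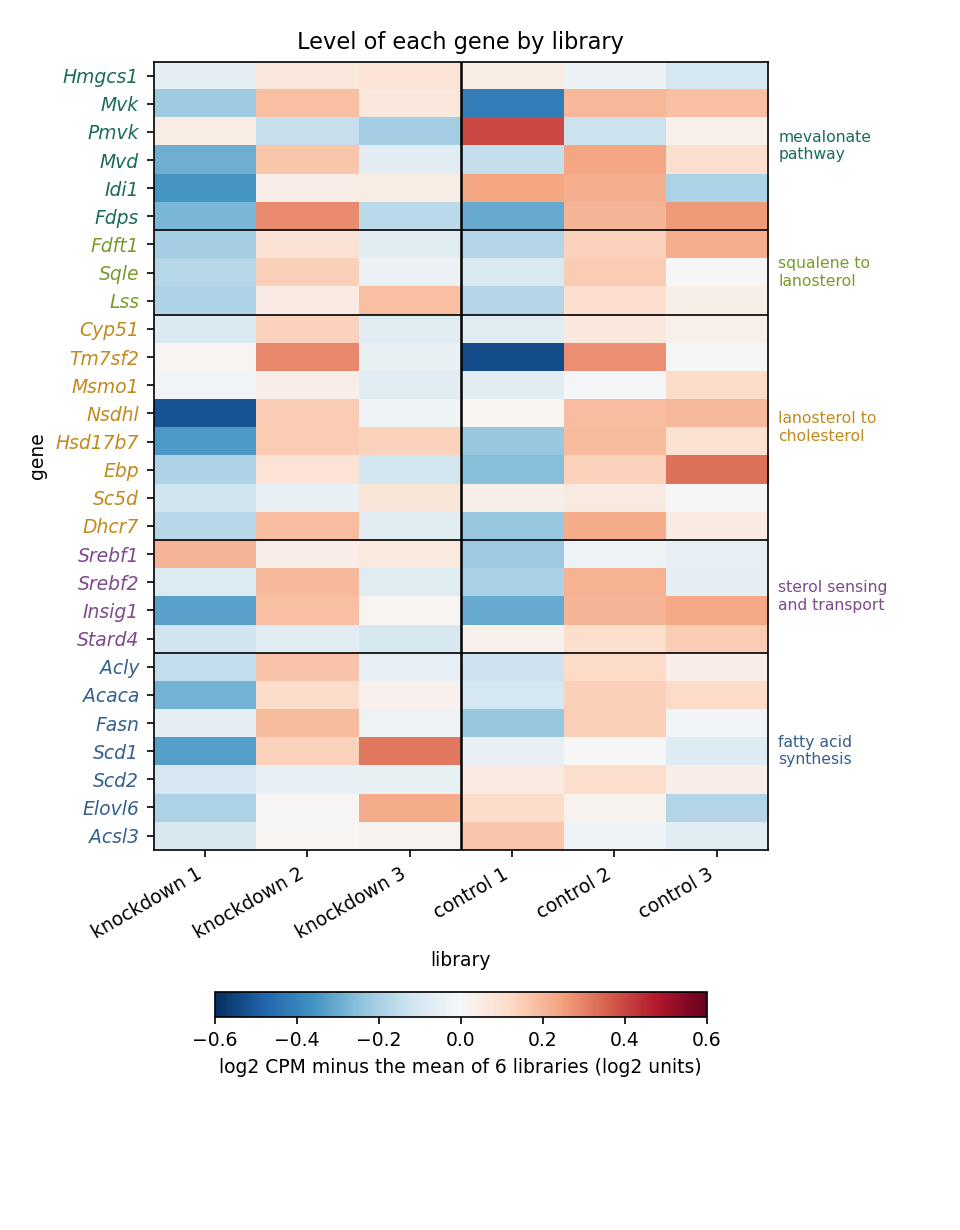
Level of each of the 28 genes (rows, ordered by role) in each library (columns, knockdown libraries at the left, control libraries at the right) as log2 CPM minus the mean of 6 libraries. Most rows are low in library 1 and high in library 2 of both groups. Some rows, Hmgcs1 in control among them, do not follow this, and Pmvk runs the other way in both groups. Srebf1, Stard4 and Scd2 differ in level between the left and right sides.

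The other genes of the pathway, 24 in all, gave 0 calls, with 13 log2 fold changes above 0, 11 below and a median of 0.008. The 4 genes of SREBP processing were close to level: Scap, which escorts SREBP from the endoplasmic reticulum, averaged 165 ± 17.2 CPM in knockdown and 156 ± 20.6 CPM in control libraries (SD, n = 3 each). Acacb, the acetyl-CoA carboxylase at mitochondria, had the smallest p of the 24. It had 5.79, 6.32 and 6.81 CPM in knockdown libraries, against 5.22, 5.18 and 4.89 CPM in control libraries, with no overlap. Its log2 fold change was 0.31 ± 0.16 (SE, edgeR unadjusted p = 0.0858, adjusted p = 1.00). Abca1, which exports cholesterol and is a target of the liver X receptors, had 145, 136 and 173 CPM in knockdown libraries, against 147, 117 and 134 CPM in control libraries. The Abca1 groups overlapped (edgeR unadjusted p = 0.132, adjusted p = 1.00). Next in order of p were the desaturase Fads1 and the elongase Elovl5, with log2 fold changes of -0.08 each. The genes that bring SREBP to activity and those that export or store sterol held 0 calls.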

How the data were processed

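RNA of 3 knockdown and 3 control libraries was sequenced as read pairs (150 bases) after removal of ribosomal RNA, per the labels' protocols. The authors deposited whole-number counts per gene (not normalised, 42396 genes, 1 table per library) and FPKM values whose columns are those of Cufflinks, per the file headers. The build GRCm38 (mm10), bcl2fastq 2.20, Cufflinks 2.2.1 and DESeq2 are named in the submitters' processing notes. The aligner, the counter and its use of strand are not given in these sources.

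Genes were filtered with filterByExpr (17439 left), scaled by TMM and tested over the whole table with edgeR 4.0.16 in R 4.3.3 (quasi-likelihood, group alone, Benjamini-Hochberg, threshold 0.05). CPM is TMM-scaled, and fold changes are knockdown against control. The fit was tested on simulated data. FPKM was tested with limma 3.58.1 on log2(FPKM + 0.1) at a mean of at least 0.5, with values marked as failed left out. Alternatives were other scalings, filters and tools (limma voom, DESeq2 1.42.0), the replicate number as a block and leaving out libraries.

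The genes and lists were chosen with earlier results of these data known. By rule, every library is given for the smallest p, for the highest level and largest change of each role and for genes without overlap, and for related genes the 4 with the smallest p are named; values of Tm7sf2, Scd1, Insig1, Fasn, Idi1 and Scap were added after seeing them. All 28 gene positions in the deposited tables equal those of RefSeq.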

Additional observations from a re-analysis of the deposited data

How the results depend on the processing

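Among the 28 genes, 0 were called in every alternative run. Over all genes, DESeq2 called 1 (175 at an unadjusted p under 0.05) and the fit with no filter on low counts called 11 (588), none of them in the set, against 0 (191) in the main test, and every other alternative called 0. The median log2 fold change of the set ran from -0.11 to 0.03 when single libraries were left out, and was above 0 without knockdown library 1 (0.03) and without control library 2 (0.01). Leaving out both libraries of number 1, 2 or 3, added after seeing the data, gave -0.02, -0.05 and -0.03. Signs of small changes turned when 1 library was left out, over these ranges of log2 fold change: Mvk (-0.17 to 0.12), Fdps (-0.29 to 0.0042), Sqle (-0.13 to 0.043), Lss (-0.045 to 0.12), Cyp51 (-0.087 to 0.030), Tm7sf2 (-0.050 to 0.35), Msmo1 (-0.061 to 0.034), Hsd17b7 (-0.14 to 0.12), Dhcr7 (-0.15 to 0.086), Srebf2 (-0.072 to 0.16), Insig1 (-0.24 to 0.035), Acly (-0.11 to 0.052), Acaca (-0.18 to 0.012), Fasn (-0.024 to 0.17), Scd1 (-0.027 to 0.27), Elovl6 (-0.068 to 0.13) and Acsl3 (-0.082 to 0.032). Without a turn of sign, values moved by over 1.5 times in Hmgcs1 (0.036 to 0.11), Pmvk (-0.31 to -0.044), Mvd (-0.25 to -0.021), Idi1 (-0.30 to -0.061), Fdft1 (-0.23 to -0.038), Nsdhl (-0.38 to -0.066), Ebp (-0.30 to -0.017) and Sc5d (-0.10 to -0.016). On the 3 FPKM settings Cyp51 (0.00011, 0.00011 and 0.00025) and Acly (0.0047, 0.0047 and 0.0048) turned sign as well. The cause was not tested.

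With the replicate number as a block, 0 genes were called (258 at an unadjusted p under 0.05, edgeR), 0 of them in the set, and its median was -0.04. The smallest unadjusted p of the set was then 0.0528, for Nsdhl, beside 0.160 in the main test (edgeR). Over genes, which are not independent, the deviations of same-numbered libraries from their group means correlated at r = 0.22, 0.23 and 0.04 for numbers 1, 2 and 3. The libraries numbered 1 and those numbered 2 correlated best with each other. Those numbered 3 did not, so the numbers were not taken as pairs. The planned test of replicate number was therefore not read, and its alternatives were not run. With 3 libraries per group, estimates under the median half-width of 0.27 log2 units mostly could not reach an unadjusted p under 0.05. Larger differences were needed for a call: in the main test 191 of all genes reached that p and 0 were called.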
